A study of Mus musculus with 7 samples.

Results

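The glutathione transferases examined were 10 genes measured in the livers of 7 mice: Gstm1, Gstm2, Gstm3 and Gstm5 of the mu class, Gsta2, Gsta3 and Gsta4 of the alpha class, Gstp1 of the pi class, Gstt1 of the theta class and Gstz1 of the zeta class. They were chosen by name, and a probe set counted for a gene where the platform annotation gave it that symbol and no other. All 10 were on the array, through 16 probe sets, out of 8251 named genes. All 10 passed the filter on dim genes, a mean signal of at least 200.1, which 4481 genes passed. Total liver RNA of female mice aged 24 to 26 months with free access to food was hybridised, 1 array per label. Titles and source names give phenotypically normal animals (+/+ or +/df), but the description field gives Ames dwarf mice (df/df); the titles were followed here. There was 1 group, with replicates numbered 1, 2, 3, 4, 6, 7 and 8, and so no comparison of conditions. Which normal genotype each animal carried is not given in the labels. Because separate animals are implied but never spelled out, p-values measure the spread between these samples, which may be partly technical.

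Glutathione transferases join the tripeptide glutathione to reactive, often fat-soluble molecules, which makes these more soluble and ready for export from the cell. The cytosolic enzymes work as pairs of subunits, and in liver they handle drugs, carcinogens and aldehydes from oxidised lipids. Several of their genes respond to the transcription factor Nrf2, which binds antioxidant response elements, and to the nuclear receptors CAR and PXR.

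Upstream sequences of members that the results below turn on are shown first, because the family is known for the response elements in its promoters. RefSeq (GRCm38.p6) sequences were matched for 9 of the 10 members, as 11 entries. Signals of Gsta2 and Gsta3 did not overlap between the array sets described below, Gstm3 and Gstt1 varied most alike by the probe sets used, and Gstp1 holds matches close to its start. Each is the 250 bases before the annotated start, 5' to 3' on the gene's strand. Capitals mark matches on either strand to the antioxidant response element core, TGACNNNGC or TGAGNNNGC, or to the TATA box, TATAAA.
Gsta2 (chr9:78347146-78347395, minus strand): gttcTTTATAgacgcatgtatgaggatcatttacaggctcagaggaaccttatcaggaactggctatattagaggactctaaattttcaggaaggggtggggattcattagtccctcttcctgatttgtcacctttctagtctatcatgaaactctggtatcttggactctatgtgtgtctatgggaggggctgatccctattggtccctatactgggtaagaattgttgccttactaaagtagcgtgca
Gsta3 (chr1:21240335-21240584, plus strand): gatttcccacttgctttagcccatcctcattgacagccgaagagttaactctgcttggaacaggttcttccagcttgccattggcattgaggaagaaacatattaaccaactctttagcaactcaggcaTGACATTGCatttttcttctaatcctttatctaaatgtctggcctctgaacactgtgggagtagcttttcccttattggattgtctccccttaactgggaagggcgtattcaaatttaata
Gstm3 (chr3:107969175-107969424, minus strand): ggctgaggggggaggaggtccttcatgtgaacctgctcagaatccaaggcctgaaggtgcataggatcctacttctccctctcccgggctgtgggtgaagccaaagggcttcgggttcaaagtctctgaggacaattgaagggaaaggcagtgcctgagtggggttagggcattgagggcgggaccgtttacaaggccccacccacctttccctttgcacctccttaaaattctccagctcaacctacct
Gstt1 (chr10:75797732-75797981, minus strand): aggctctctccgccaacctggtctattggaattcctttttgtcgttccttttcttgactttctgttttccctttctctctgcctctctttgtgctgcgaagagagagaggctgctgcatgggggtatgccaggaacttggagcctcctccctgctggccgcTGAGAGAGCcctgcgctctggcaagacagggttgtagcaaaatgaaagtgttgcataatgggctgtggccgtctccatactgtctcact
Gstp1 (chr19:4037913-4038162, minus strand): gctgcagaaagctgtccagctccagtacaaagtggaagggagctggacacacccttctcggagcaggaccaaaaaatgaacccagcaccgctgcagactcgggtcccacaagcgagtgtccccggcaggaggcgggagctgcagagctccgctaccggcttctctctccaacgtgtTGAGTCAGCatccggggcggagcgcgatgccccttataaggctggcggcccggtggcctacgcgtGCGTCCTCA
One form or the other of the core was found in 6 of 11 member entries (Gsta3, Gstm5, Gstp1, Gstt1 and both Gstz1 entries), against 23.0% of 32851 promoter entries of the same length. The first base of the match lay 121 bases before the start in Gsta3, 89 in Gstt1, and 74 and 9 in Gstp1. The xenobiotic response core GCGTG, searched on both strands, was in 5 of 11 entries (Gsta2, Gstm5, Gstp1 and both Gstm1 entries), against 28.2%, and in Gstm5 and Gstp1 a match overlaps one to the antioxidant core. Both Gstm1 entries overlap and share the same match, which is thus counted for each. TATAAA was in 2 of 11 (Gsta2, on the opposite strand, and a Gstm1 entry), against 12.4%, and the HNF1 half-site GTTAAT in 1 of 11 (Gsta3), against 6.43%. A match describes letters only and is not a binding site.

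The arrays had one trimmed mean, 500.36 to 500.39, and pairs of arrays correlated at r of 0.961 to 0.975 over tested genes, which are not independent replicates. Bacterial spike-in controls split them into a set with higher spike-in signal (replicates 1 to 4, mean log2 signal 10.64 to 10.97) and a set with lower signal (replicates 6 to 8, 10.20 to 10.24). The sets were drawn here from the spike-in signal alone and are not groups of the study. They follow the numbering of the replicates, so technical differences and differences between animals cannot be told apart. The hepatocyte marker Alb had 31853 ± 3080 (SD, n = 7), while the bile duct markers Krt7 and Epcam were below the floor of 50.04 on all arrays. The third such marker on the array, Krt19, had 65.8 on replicate 2 and was below the floor on the other 6 arrays, and the summed signal of these 3 ran from 38.8 to 111. In bulk tissue, fewer cells of a type and less RNA per cell cannot be told apart.

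**Figure D1:**
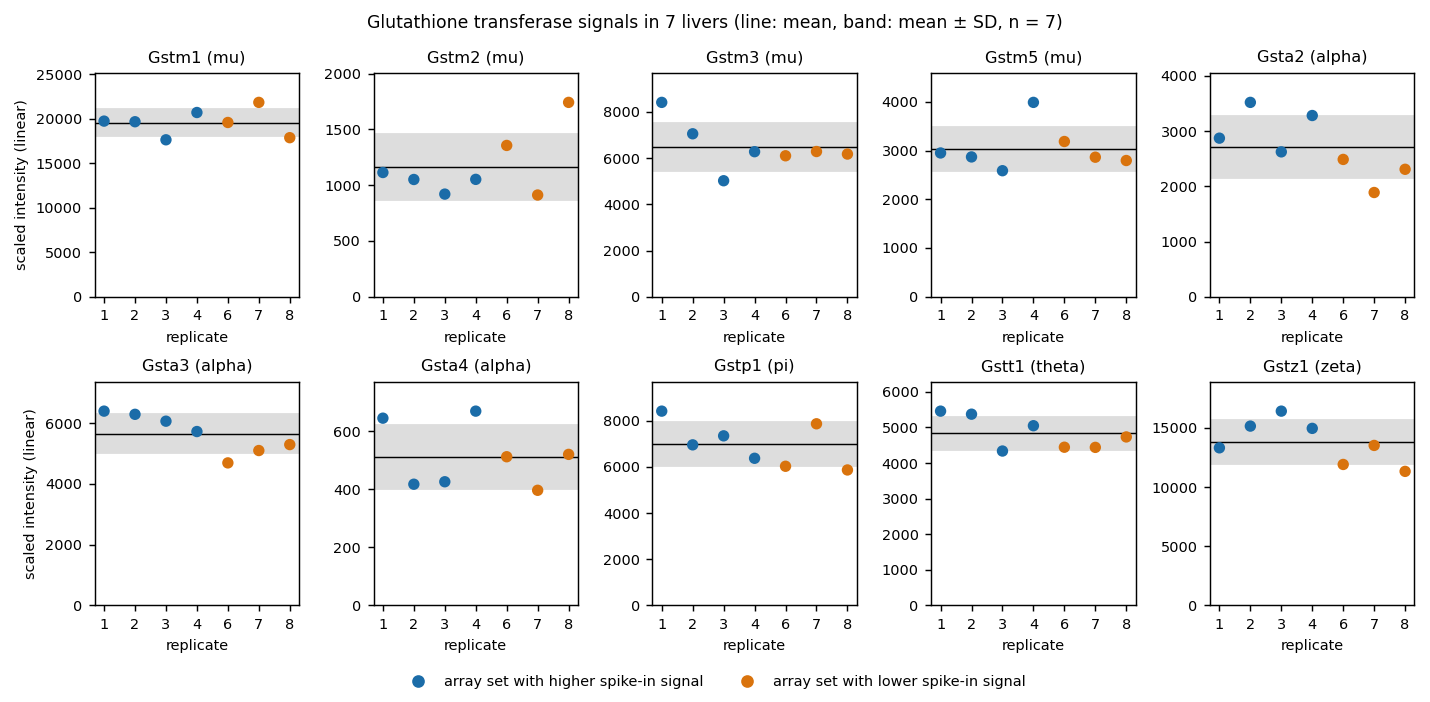
Scaled intensity (linear axis from 0) of each glutathione transferase on the 7 arrays, with the mean and SD of each gene and points coloured by array set. Gsta2 and Gsta3 are higher on each of replicates 1 to 4 than on any of replicates 6 to 8.

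The mu class lies in a cluster on chromosome 3. Gstm1, a major mu-class subunit of mouse liver, had signals of 19717, 19648, 17619, 20684, 19564, 21821 and 17857 on replicates 1, 2, 3, 4, 6, 7 and 8, a mean of 19559 ± 1476 (SD, n = 7). Its highest and lowest arrays, replicates 7 and 3, were 1.24-fold apart. Gstm3, another mu-class subunit, ranged from 5022 on replicate 3 through a median of 6280 to 8416 on replicate 1, with a mean of 6477 ± 1042. Replicate 2 followed at 7056, and the other 4 arrays lay within 6103 to 6287. Gstm5 ranged from 2585 on replicate 3 through a median of 2868 to 3988 on replicate 4, with a mean of 3033 ± 457. Replicate 4 stood apart, since the next highest array, replicate 6, had 3185. Gstm2 was high on replicates 8 (1742) and 6 (1356) and between 911 and 1113 elsewhere, with a mean of 1164 ± 295. Its log2 SD of 0.33 was the largest among the members, and was 0.21 without replicate 8. The log2 SD of Gstm5 was 0.20, and 0.10 without replicate 4.

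Probe sets of one mu-class gene gave different orders of the arrays. Those of Gstm1 and Gstm3 all carry the suffixes _f_at or _r_at, called relaxed here. The first is given to probes that may bind several relatives, the second to probes picked under relaxed rules. The values used for these genes, from 93543_f_at and 97681_f_at, are therefore uncertain between near-identical family members. The Gstm5 probe set used, 100630_f_at, carries such a suffix too. The second Gstm1 probe set, 161633_r_at, had a mean of 593 ± 47.6 and r = 0.205 with the brighter one used here (exact permutation p = 0.679; rho = -0.036, exact permutation p = 0.963; r = 0.430 without the 2 farthest arrays). The second Gstm2 probe set, 161357_r_at, was lowest on replicate 2 at 387, and had r = 0.177 with the one used (exact permutation p = 0.675; rho = 0.036; r = -0.432 without the 2 farthest arrays). The second Gstm3 probe set, 97682_r_at, was highest on replicate 6 at 2911, with r = 0.150 (exact permutation p = 0.746; rho = -0.071; r = -0.496). For Gstm5, 100629_at gave r = 0.140 and 100631_r_at gave 0.021 (exact permutation p = 0.743 and 0.945; rho = -0.143 and -0.321; r = -0.455 and -0.328). Probe set 100631_r_at had 83.7 on replicate 2 and 403 to 604 on the other arrays, and 161722_f_at was below the floor on all 7. Which mice stood high in a mu-class gene therefore depended on the probe set read.

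**Figure D2:**
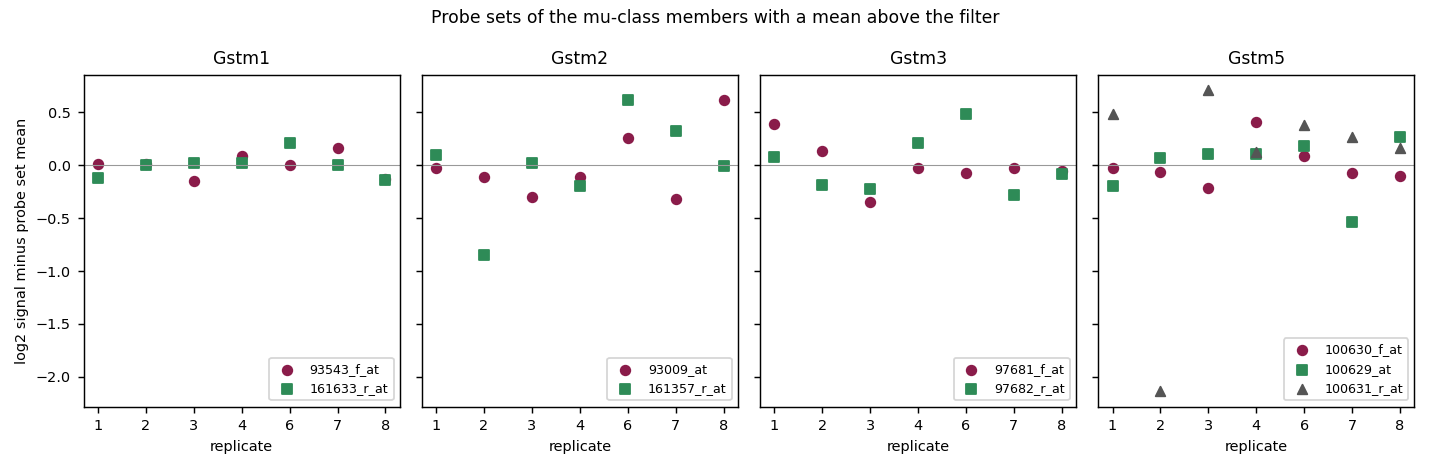
Log2 signal minus the probe set's own mean on each array for the mu-class probe sets whose mean passed the filter. Probe sets of one gene do not share an order of arrays, and 100631_r_at of Gstm5 lies far below its mean on replicate 2, at a signal of 83.7.

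Alpha-class members had 1 probe set each, none with a relaxed suffix. Gsta3, whose enzyme conjugates aflatoxin epoxide, had 6392, 6287, 6061 and 5720 on replicates 1 to 4 and 4689, 5095 and 5291 on replicates 6 to 8, a mean of 5648 ± 644. Gsta2, another alpha-class subunit, had 2873, 3522, 2625 and 3284 on replicates 1 to 4 and 2488, 1888 and 2309 on replicates 6 to 8, a mean of 2713 ± 564. In both genes the 2 array sets did not overlap. Gsta4, whose enzyme acts on the lipid aldehyde 4-hydroxynonenal, had 645, 417, 426, 669, 512, 396 and 520 on replicates 1, 2, 3, 4, 6, 7 and 8, a mean of 512 ± 110. It was high on replicates 1 and 4 and low on replicates 2, 3 and 7, so both sets held low arrays.

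The pi, theta and zeta classes have 1 member each. Gstp1, the pi-class subunit, which is more abundant in male than in female mouse liver, ranged from 5872 on replicate 8 through a median of 6960 to 8421 on replicate 1, with a mean of 6984 ± 958. Gstt1, which acts on small halogenated compounds, was high on replicates 1 (5459), 2 (5373) and 4 (5049) and between 4338 and 4734 elsewhere, with a mean of 4834 ± 464. Gstz1 is maleylacetoacetate isomerase, a step of tyrosine breakdown. It had 13314, 15150, 16414 and 14958 on replicates 1 to 4 and 11910, 13518 and 11325 on replicates 6 to 8, a mean of 13798 ± 1826. Its sets overlapped, because replicate 7 exceeded replicate 1. Signals of different probe sets do not rank transcripts, so no order of abundance is given.

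No member passed the test for more spread between arrays than genes of its level. The limma variance test called 0 of 10 members and 0% of 4481 genes after adjustment, and without it (p under 0.05) 0 members against 6.72% of genes. Gstm2 and Gsta2 came closest, with SDs 2.04 and 2.02 times the expected (limma adjusted p = 0.784 and 0.795). Gstm1 and Gstt1, at 0.90 and 0.96 times the expected SD, were the members below 1. The SD was above the expected in 8 of 10 members, against 49.1% of tested genes. The median log2 SD was 0.20 over members and 0.18 over all tested genes.

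In 5 members the signal was higher where the Gapdh control gave a higher 3' to 5' ratio, but none passed a test over all genes. That control has probe sets along the transcript, and its ratio was 0.907, 0.866, 0.804, 0.899, 0.875, 0.788 and 0.834 on replicates 1, 2, 3, 4, 6, 7 and 8. Pearson r of log2 signal with the log2 ratio was 0.817 for Gsta4, 0.736 for Gstt1, 0.716 for Gsta2, 0.637 for Gstm3 and 0.634 for Gstm5. The value of Gstm5 rests on its brightest probe set, since r was 0.332 with the probe set that has no relaxed suffix and 0.053 with the mean of all its probe sets. For Gstm3, r was 0.703 with its second probe set and 0.884 with the mean of its probe sets (exact permutation p = 0.080 and 0.010). With the probe sets used, r was 0.281 for Gsta3, 0.247 for Gstm2, 0.117 for Gstm1, -0.104 for Gstz1 and -0.132 for Gstp1. Members with r above 0.5 were 5 of 10, against 13.6% of tested genes, and those above 0 were 8 of 10, against 48.7%. The median r was 0.457 over members and -0.01 over all tested genes. These counts describe the members and are not a test of the list.

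**Figure D3:**
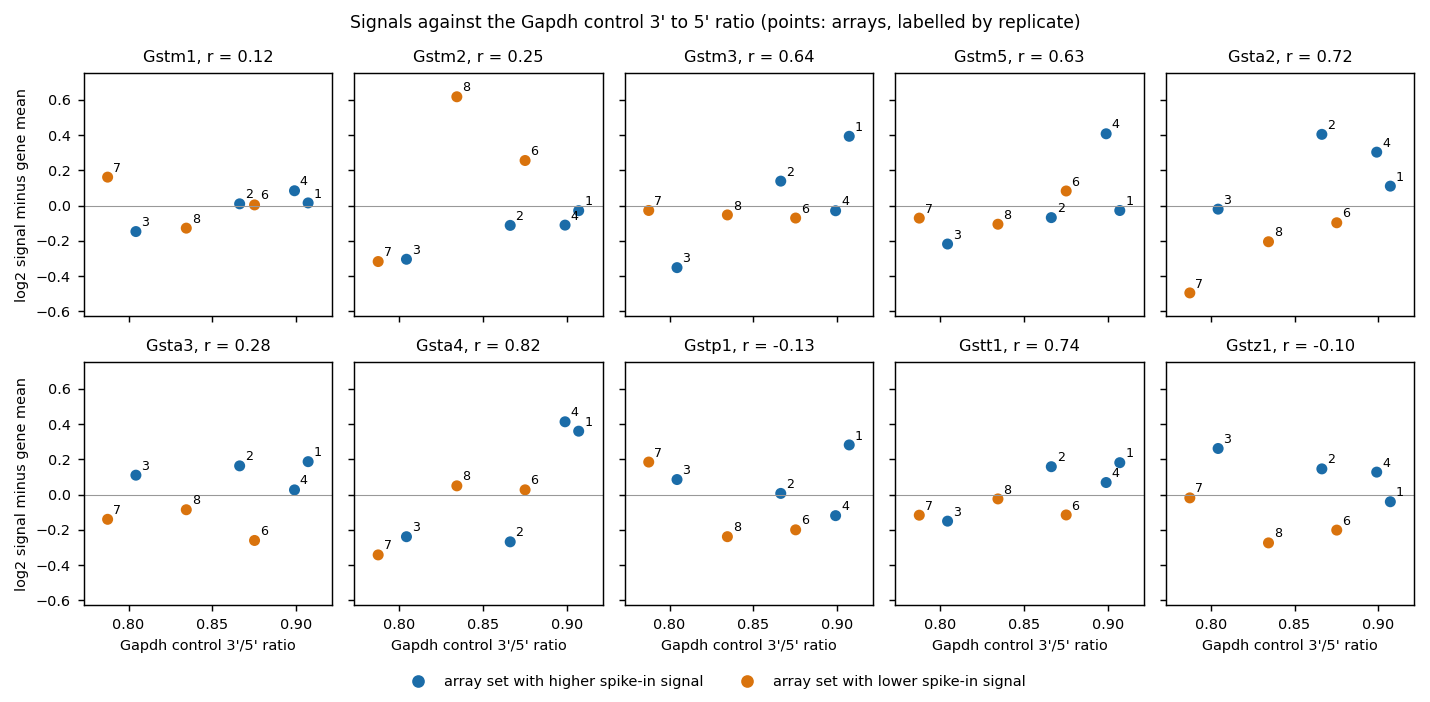
Log2 signal minus the gene's mean against the Gapdh control 3' to 5' ratio, 1 panel per member and 1 point per array, labelled by replicate and coloured by array set. Gsta4 (r = 0.817) is low on replicates 3 and 7, where the ratio is low, and also on replicate 2, while Gstp1 (r = -0.132) shows no such order.

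Gsta4 had the highest correlation with the ratio. Over the observed range of the ratio the limma slope gave a log2 difference of 0.64 ± 0.20 (SE), with a limma adjusted p of 0.558. Its r had an exact two-sided permutation p of 0.030 (adjusted p = 0.702 over 4481 genes), and rho was 0.786 (exact permutation p = 0.048, adjusted p = 0.794). Without replicates 3 and 7, the arrays farthest from the median ratio, r was 0.649, and with array set means removed it was 0.805. The exact permutation p was above 0.05 when replicate 1, 3, 4, 6 or 7 was left out (0.051 to 0.104), at r of 0.747 to 0.828. The array sets hold 4 and 3 arrays, too few for a correlation within each. The smallest p that 7 arrays allow is 0.0002, so a relation could pass adjustment over 4481 genes only where many genes came near that p together.

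Gsta2 was the other member with an unadjusted limma p under 0.05, at a log2 difference of 0.57 ± 0.21 (SE) over the range (limma adjusted p = 0.647). With the array set as a term the difference was 0.36 (limma adjusted p = 0.786), and the unadjusted p was no longer under 0.05. Its r had an exact permutation p of 0.073 (adjusted p = 0.767), rho was 0.607 (exact permutation p = 0.167), and r was 0.506 without replicates 3 and 7 and 0.703 with set means removed. Gstt1 gave a difference of 0.26 ± 0.13 (limma adjusted p = 0.743), Gstm3 0.37 ± 0.17 (limma adjusted p = 0.703) and Gstm5 0.33 ± 0.17 (limma adjusted p = 0.762). Exact permutation p of r was 0.072 for Gstt1, 0.116 for Gstm3 and 0.111 for Gstm5 (adjusted p = 0.767, 0.809 and 0.801). Their rho values were 0.786, 0.393 and 0.786 (exact permutation p = 0.048, 0.396 and 0.048), and r without replicates 3 and 7 was 0.463, 0.542 and 0.560. Thus 2 of 10 members had a positive slope at an unadjusted limma p under 0.05 and 0 a negative one, against 3.24% and 3.79% of tested genes. By the exact permutation test it was 1 of 10 positive and 0 negative, against 3.12% and 3.68%, and at an adjusted limma p under 0.05 it was 0 members and 0% of genes.

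**Figure D4:**
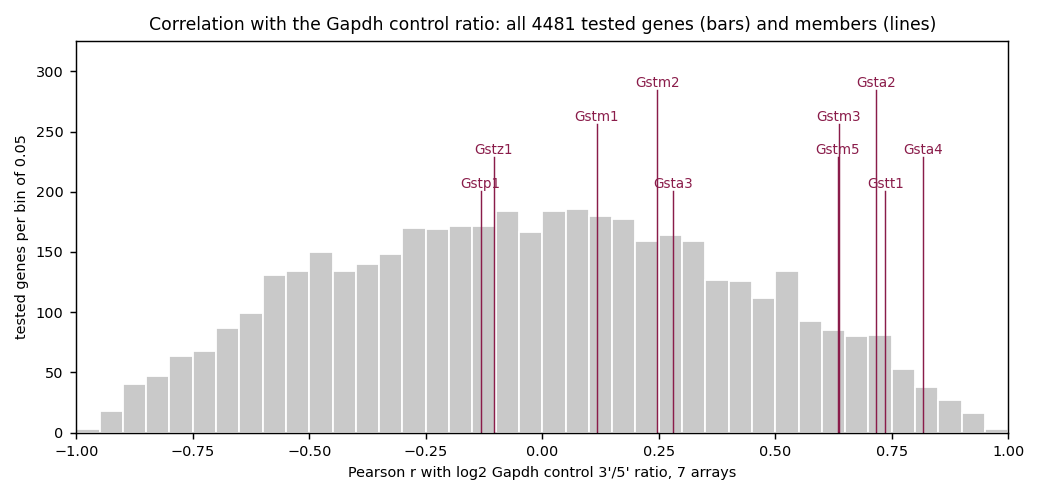
Number of tested genes in each bin of Pearson r with the log2 Gapdh control ratio over 7 arrays (bars), with the 10 members as labelled lines. Members fall at 0.634 to 0.817 (5 genes) and at -0.132 to 0.281 (5 genes), and the median of all tested genes is -0.01.

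For Gsta3, Gstm1, Gstm2, Gstp1 and Gstz1 the relation depended on single arrays or on the array sets. Their log2 differences over the range of the ratio were 0.12 ± 0.17, 0.03 ± 0.13, 0.21 ± 0.30, -0.07 ± 0.19 and -0.05 ± 0.18 (limma adjusted p = 0.959, 0.986, 0.961, 0.980 and 0.983). Gstm1 was highest on replicate 7, the array with the lowest ratio, and r was 0.920 without it. Without replicates 3 and 7, r was -0.791 for Gstm2, 0.864 for Gstm1, 0.665 for Gstp1, 0.550 for Gstz1 and 0.401 for Gsta3. The median over all 10 members was then 0.546, against -0.02 over all tested genes. Gstz1 had r = -0.810 with set means removed, and a limma adjusted p of 0.753 with the set as a term, and Gsta3 had -0.264.

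The pyruvate carboxylase control gave the same members with r above 0.5 as the Gapdh 3' to 5' ratio did. The pyruvate carboxylase ratio, chosen after seeing the data, was 5.55 on replicate 1, 5.39 on replicate 4 and between 2.25 and 3.48 elsewhere. It followed the Gapdh ratio (r = 0.884, exact permutation p = 0.014, adjusted p = 0.041 over 3 relations; rho = 0.857, exact permutation p = 0.024; r = 0.732 without replicates 3 and 7). The other relations to the Gapdh ratio did not pass. Their r was 0.312 for the Gapdh 3' to middle ratio and -0.410 for the beta-actin ratio (adjusted exact permutation p = 0.473 for each). Gsta4, Gstt1 and Gstm3 had r of 0.887, 0.830 and 0.708 with the pyruvate carboxylase ratio (exact permutation p = 0.017, 0.027 and 0.056; adjusted p = 0.544, 0.567 and 0.627; rho = 0.679, 0.964 and 0.714). Without replicates 1 and 4 these were 0.516, 0.790 and 0.704. With Gstm5 (0.629) and Gsta2 (0.613), 5 of 10 members had r above 0.5, against 14.3% of tested genes, and 9 of 10 had r above 0, against 48.3%. Since both ratios follow each other across the arrays, these counts are not independent of those for Gapdh. These 3 members had a positive slope at an unadjusted limma p under 0.05 (limma adjusted p = 0.379, 0.546 and 0.539), against 3.46% of tested genes, and 0 had a negative one, against 4.86%. After adjustment it was 0 members and 0% of genes. The Gapdh 3' to middle ratio instead separated the sets, with 0.889 to 0.939 in the higher spike-in set and 0.807 to 0.826 in the lower. With that ratio r was 0.929 for Gsta3, 0.825 for Gsta2 and 0.781 for Gstz1 (exact permutation p = 0.0065, 0.021 and 0.048). It was 0.600 for Gstt1, 0.332 for Gstp1, 0.183 for Gstm3 and 0.064 for Gsta4. For Gstm5, Gstm1 and Gstm2 it was -0.035, -0.214 and -0.446. At an unadjusted limma p under 0.05 it was 3 of 10 members and 294 of 4481 tested genes, and 0 of either after adjustment.

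The beta-actin ratio was 1.34 on replicate 1, 1.31 on replicate 2 and between 1.56 and 1.78 elsewhere. Gsta3 had r = -0.794 with it (exact permutation p = 0.035, adjusted p = 0.876; rho = -0.786, exact permutation p = 0.048), -0.549 without replicates 1 and 2 and -0.639 with set means removed. Its log2 difference over the range was -0.32 ± 0.13 (limma adjusted p = 0.895), and -0.15 with the array set as a term (limma adjusted p = 0.993), where 0 members had an unadjusted p under 0.05. It was the 1 member of 10 with a negative slope at an unadjusted limma p under 0.05, against 2.1% of tested genes by that fit and 2.1% by the exact test, and 0 had a positive one, against 3.06% and 3.33%. After adjustment it was 0 members and 0% of genes. Members with r above 0 were 3 of 10, against 52.6%, and the median r was -0.387, against 0.03 over all tested genes. Without replicates 1 and 2 the members' median was 0.136. Gstt1 and Gstm3 had r of -0.727 and -0.600 (exact permutation p = 0.086 and 0.172; rho = -0.50 and -0.286), and 0.431 and 0.941 without replicates 1 and 2. Those arrays also carried skeletal muscle transcripts: Acta1 had 5991 and 2034 on them and 10.5 to 100.4 on the others. Atp2a1, Myl1 and Tnnt3 were also highest on them, but the muscle creatine kinase Ckm was not, with 143.8 and 170 there against 209.5 on replicate 8. The summed signal of 5 muscle markers ran from 450.6 on replicate 6 to 8682 on replicate 1. Gstm3, Gsta3, Gstp1 and Gstt1 were highest on replicate 1, and the part of muscle in these values was not tested.

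Gsta2, Gsta3 and Gstz1 were lower in the lower spike-in set at an unadjusted level. Gsta2 had 3076 ± 403 (SD, n = 4) in the higher and 2229 ± 308 (SD, n = 3) in the lower set, a log2 difference of -0.47 ± 0.13 (SE; limma adjusted p = 0.543). Gsta3 had 6115 ± 297 and 5025 ± 307, a log2 difference of -0.28 ± 0.08 (limma adjusted p = 0.543). Gstz1 had 14959 ± 1273 and 12251 ± 1135, a log2 difference of -0.29 ± 0.09 (limma adjusted p = 0.579). At an unadjusted limma p under 0.05, 3 of 10 members were lower and 0 higher, against 3.68% and 3.21% of tested genes, and 2 of 10 did not overlap in that direction and 0 in the other, against 3.73% and 3.62%. At an adjusted p under 0.05 it was 0 members and 0% of genes. Gstm2 and Gstm1 had positive differences, 0.32 ± 0.19 and 0.02 ± 0.08, and the other 5 members lay between -0.15 and -0.05 (limma adjusted p from 0.764 to 0.980 for these 7). The summed signal of 6 hepatocyte markers was 125531 to 138839 in the higher and 116251 to 125115 in the lower set. Of these, 2 had an unadjusted limma p under 0.05, Alb and Apoa1, at log2 differences of -0.19 and -0.21 (limma adjusted p = 0.681 and 0.713), and 0 passed adjustment, while Ttr differed by 0.01. The summed signal of the macrophage markers was 5033 to 5385 in the higher and 5382 to 6930 in the lower set. Of 6 tested, 2 were higher in the lower set at an unadjusted limma p under 0.05, Clec4f and Csf1r, at 0.28 and 0.39 (limma adjusted p = 0.667 and 0.713), and 0 passed adjustment. Lyz2 went the other way, at -0.15 (limma adjusted p = 0.954). The part of either marker list in the member differences was not tested.

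Members were not uniformly alike in how they varied. Over 45 pairs, r ran from -0.839 to 0.843 with a median of 0.179, and 8 pairs exceeded 0.5. Over all pairs of tested genes the median was 0.00035 and 13.1% exceeded 0.5. The median was 0.130 over the 6 mu-class pairs, 0.392 over the 3 alpha-class pairs and 0.208 over the 36 pairs of different classes. The alpha-class median was -0.243 with set means removed and -0.148 with the trend on the Gapdh ratio removed. Gstm3 and Gstt1 were the most alike, at r = 0.843 (exact permutation p = 0.0016, adjusted p = 0.541 for Gstm3 and 0.333 for Gstt1 against all tested genes; rho = 0.786, exact permutation p = 0.048). Of all other tested genes, 1.47% were as close to Gstm3. The Gstm3 values here are those of 97681_f_at, with which the gene's second probe set, 97682_r_at, had r = 0.150. The likeness to Gstt1 was not tested with that second probe set. The pair's r stood at 0.805 when the 2 arrays most distant from the Gstm3 median were left out, 0.557 by the same step for Gstt1, and 0.908 with set means removed. Gstm2 and Gstz1 were the least alike, at r = -0.839 (exact permutation p = 0.015, adjusted p = 0.968 for Gstm2 and 0.805 for Gstz1; rho = -0.786, exact permutation p = 0.048), and -0.309 without the 2 arrays farthest from the median of Gstm2. With the trend on the Gapdh ratio removed, the median over the pairs was -0.068.

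**Figure D5:**
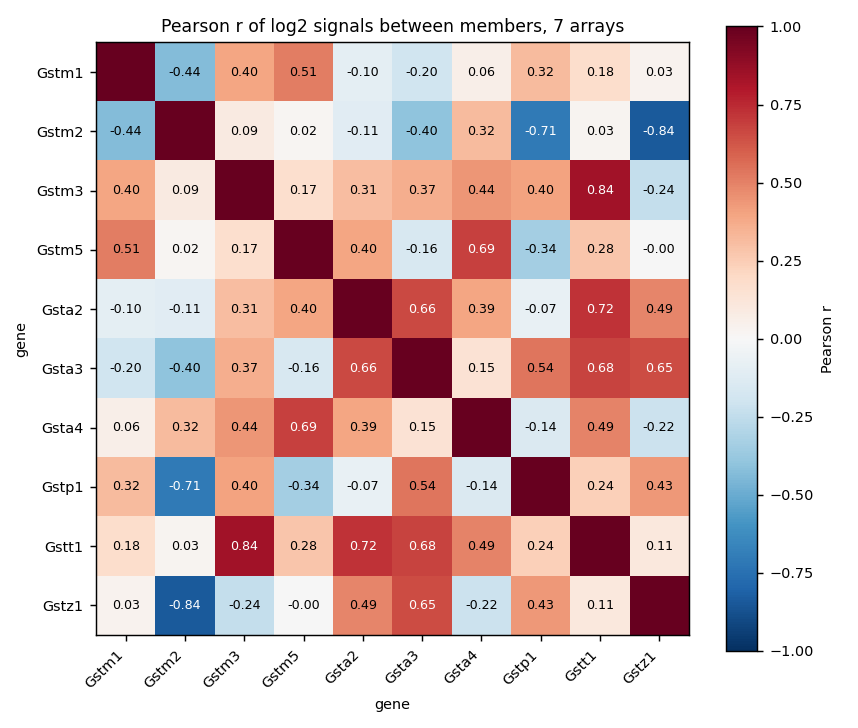
Pearson r of log2 signals over 7 arrays for each pair of members, on a colour scale from -1 to 1. Gstm3 with Gstt1 is highest (0.843) and Gstm2 with Gstz1 lowest (-0.839).

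The closest member to Gsta2 was Gstt1 (r = 0.721, exact permutation p = 0.072, adjusted p = 0.815; rho = 0.643; 0.570 without the 2 farthest arrays), and to Gsta3 also Gstt1 (r = 0.676, exact permutation p = 0.104, adjusted p = 0.722; rho = 0.607; 0.465). Gsta4 and Gstm5 were each other's closest (r = 0.685, exact permutation p = 0.061, adjusted p = 0.815 for Gsta4 and 0.925 for Gstm5; rho = 0.536; 0.469 and 0.429). Gstz1 was closest to Gsta3 (r = 0.653, exact permutation p = 0.118, adjusted p = 0.922; rho = 0.464; 0.683), but r was -0.264 with set means removed. Outside the family, the genes most like Gstm2, the member of largest relative spread, were Zfp275, Snrpe and Fcf1, at r = 0.987, 0.962 and 0.959 over 7 arrays (adjusted exact permutation p = 0.948; rho = 0.964, 0.964 and 0.893), and 0.888, 0.830 and 0.872 without the 2 farthest arrays. For Gstm1, the member of smallest relative spread, they were Arfrp1, Sfxn2 and Apex1, at r = 0.950, 0.940 and 0.930 (adjusted exact permutation p = 1; rho = 0.786, 0.857 and 0.821), and 0.857, 0.846 and 0.784 without those arrays.

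Other transferases were on the array as 9 of 17 listed genes, and 6 passed the filter. Gstk1, a transferase of mitochondria and peroxisomes, had 4306, 3572, 4788 and 4996 on replicates 1 to 4 and 2606, 3397 and 3354 on replicates 6 to 8. Its sets did not overlap, with a log2 difference of -0.50 (limma adjusted p = 0.543). Microsomal Mgst1 had 7556 ± 1206 and Gstt2 2306 ± 284. Of the 6, 0 had an unadjusted limma p under 0.05 with the Gapdh ratio, and the median r was 0.166. Their r ran from -0.731 for Gstm6, also of the mu class, to 0.721 for Mgst3 (exact permutation p = 0.054 and 0.072). These 2 genes were named after their values were seen.

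The wider pathway was set against the Gapdh ratio in the same way, and 0 genes of any list passed adjustment. Of all tested genes, 3.24% had a positive and 3.79% a negative slope at an unadjusted limma p under 0.05. Unadjusted limma p was under 0.05 for 0 of 7 tested genes of glutathione supply (of 14 listed; median r = -0.175) and for 0 of 5 glutathione peroxidases and related enzymes (of 8; 0.120). Gclm, a subunit of the enzyme that starts glutathione synthesis, had 1874 ± 262 and r = -0.175. Of 12 tested Nrf2 targets (of 16; median r = 0.361), 2 had a positive slope and 0 a negative one: the carbonyl reductase Cbr1 (r = 0.681) and, named after its value was seen, heme oxygenase Hmox1 (r = 0.857). Of 14 tested regulators (of 19; median r = -0.182), 0 had a positive and 2 a negative slope: the hepatocyte factor Hnf4a (r = -0.724) and, named after its value was seen, Rxra (r = -0.758), the partner of CAR and PXR. CAR itself (Nr1i3) had r = -0.586. Among 10 tested genes of conjugate export and processing (of 17; median r = -0.086), 1 had a positive slope, the aminoacylase Acy1 (r = 0.816), named after its value was seen.

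In tyrosine breakdown, all 5 listed genes on the array were tested (of 6; median r = 0.557). Tat, the first enzyme, had r = 0.794 (exact permutation p = 0.044, limma adjusted p = 0.624) and was the 1 gene with an unadjusted limma p under 0.05. Fah, which acts after Gstz1, had r = 0.557, against -0.104 for Gstz1, and these differences were not tested. Of 11 tested phase 1 enzymes (of 14; median r = -0.223), 1 had a positive and 2 a negative slope, namely Fmo5 and, in the other direction, Cyp3a11 and Cyp3a13; Fmo5 and Cyp3a13 were named after their values were seen. Of 7 other conjugating enzymes (of 15; median r = 0.038), 2 had a positive slope: Sult5a1, a sulfotransferase, with a log2 difference of 1.23 ± 0.26 over the range (limma adjusted p = 0.350), and, named after its value was seen, Sult1a1 (r = 0.880). These counts stand against 3.24% of tested genes with a positive and 3.79% with a negative slope.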

How the data were processed

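RNA from 7 livers was measured on 1-colour Affymetrix U74Av2 arrays and a GeneArray scanner, per the labels. What the authors deposited is a linear intensity for each probe set; the software and scaling target that the authors used were not given in the sources used here, and no detection calls were used. Of 12488 probe sets, 66 were controls, and 10833 of the others had 1 gene symbol, 396 several and 1193 none listed. Gene identifiers matched RefSeq (GRCm38.p6) for 10817 of the 10833.

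Arrays were scaled to one 2% trimmed mean, and values under 0.1 of it (50.04) were raised to that floor before taking log2. The brightest probe set stood for a gene, and genes averaging 0.4 of the trimmed mean (200.1) or more were tested. Signals in the text are scaled values before the floor. limma 3.58.1 in R 4.3.3 (trended, robust prior) was fitted on all 4481 genes for spread, for each control ratio and for array set (spike-in signal split at its widest gap), with Benjamini-Hochberg adjustment at 0.05. Correlations used exact two-sided permutation tests adjusted over all tested genes. The limma fits were also run on simulated data with independent noise for each gene, and the recovery is not given here. Python 3.11.15, numpy 2.4.6, pandas 2.3.3 and matplotlib 3.10.9 did the rest. The number of arrays limits the precision.

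Members and the 22 gene lists were chosen with earlier results of these data known. Named genes were all members, in each list at most 3 with the highest mean and 2 with the widest log2 SD, any gene past a test, and the 3 genes most like the members of largest and smallest relative spread. Alternatives were other scalings, floors, filters, probe set rules, priors and control ratios, the set as a term, and leaving out each array. The pyruvate carboxylase ratio and the motifs searched were chosen after seeing the data.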

Additional observations from a re-analysis of the deposited data

Results flagged for a closer look

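Each of the 16 member probe sets was searched as a group of 7 arrays. In these, 3 signals stood far from the others by the gap to the nearest array relative to the whole range. Chance meets this rule in about 1 of 20 groups, and no share over all probe sets is given. Gstm5 had 3988 on replicate 4, where the other 6 arrays had 2585 to 3185. The second Gstm1 probe set, 161633_r_at, had 682.8 on replicate 6, where the others had 538 to 600.2, and the Gstm1 probe set used in the report was not extreme on that array, at 19564. The Gstm5 probe set 100631_r_at had 83.7 on replicate 2, where the others had 403 to 604.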

How the results depend on the processing

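Of 135 alternatives for results that answer a comparison, 116 stayed within a set tolerance and 19 moved. The tolerance was 1.5 times for counts, with any change from or to 0 counted as moved. For the median r over pairs it was the SD over the pairs, and for the median log2 SD it was the SD over members. By that wide rule a median r over pairs of -0.068 counted as unchanged from 0.179. Genes with more spread numbered 0, but 1 when an offset replaced the floor and 0 to 1 with each replicate left out (1 without replicate 3, 4, 6 or 7). Genes that followed the Gapdh ratio numbered 0, but 1 with a prior without the robust step and 0 to 1 with each replicate left out (1 without replicate 8). For the beta-actin ratio it was 0, but 1 without the robust step and 0 to 5 with each replicate left out (5 without replicate 3, 1 without replicate 4). For the array sets it was 0, but 2 with no filter. Members with an exact permutation p under 0.05 for the Gapdh ratio numbered 1 (Gsta4), against 3.12% of tested genes positive and 3.68% negative. The count was 2 with quantile normalization (Gsta4 and Gstt1) and 2 with the mean of all probe sets (Gsta4 and Gstm3). The pyruvate carboxylase ratio gave 2 (Gsta4 and Gstt1) and the 3' to middle ratio 3 (Gsta2, Gsta3 and Gstz1). With each replicate left out it was 0 to 1, and the member changed. It was Gsta4 without replicate 2 or 8, Gstt1 without replicate 6 and Gstm1 without replicate 7. With set means removed the count was 2 (Gsta4 with a positive and Gstz1 with a negative slope), but by the limma p with the set as a term, which is another test; without that term the limma count was also 2 (Gsta4 and Gsta2). With each replicate left out, r with the Gapdh ratio ran from -0.228 (without replicate 3) to 0.920 (without replicate 7) for Gstm1, from -0.032 (7) to 0.684 (8) for Gstm2, from -0.674 (1) to 0.191 (7) for Gstp1 and from -0.275 (8) to 0.249 (3) for Gstz1, so its sign turned. It also turned with the mean of all probe sets for Gstm2 (-0.0073), with the 3' to middle ratio for Gstm1 (-0.214), Gstm2 (-0.446), Gstm5 (-0.035), Gstp1 (0.332) and Gstz1 (0.781), with the pyruvate carboxylase ratio for Gstp1 (0.015), and with set means removed for Gsta3 (-0.264). The set difference ran with each replicate left out from -0.053 (7) to 0.092 (8) for Gstm1, from -0.218 (3) to 0.030 (1) for Gstm3 and from -0.135 (3) to 0.073 (4) for Gstm5, and was 0.093 with the mean of all probe sets for Gstm5. The cause was not tested. Gstm1 and Gstm3 have no value when relaxed suffixes are left out. No paired analysis was possible because there is 1 group.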
